A study of Camelus dromedarius with 4 samples.

Results

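Chemokines, interleukins and their receptors were examined in RNA from the supraoptic nucleus of the dromedary camel in winter and in summer. The members were every gene symbol of the table of season means that begins with CCL, CCR, CXCL, CXCR or IL followed by a digit, with CX3CL1 and XCR1 added. The rule matched 124 symbols, of which 122 are described here. Of these, 94 had a mean in both seasons, out of 16053 such symbols in all, and the other 28 were listed without means. The supraoptic nucleus is a hypothalamic nucleus of large neurones that send vasopressin and oxytocin to the posterior pituitary, with glia and a dense capillary bed around them.

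The camels were hydrated adult males of the Tergui breed, matched for age and slaughtered for consumption, in winter at El Oued and in summer at Ouargla. Season therefore cannot be told apart from place or from slaughter date. Each season had 2 libraries, numbered 2 and 3 in winter and 1 and 2 in summer by the labels, and the comparison asked how the nucleus differs between the seasons. By the study's outline of its experiments the libraries of a season came from separate camels, although the labels do not tie a library to an animal. In bulk tissue, fewer cells of a type and less RNA per cell cannot be told apart.

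Chemokines are small secreted proteins that draw leukocytes along a gradient and act through receptors with a serpentine fold that couple to G proteins. Interleukins are the larger and more varied messengers between immune cells, and most of their receptors signal through JAK kinases and STAT factors or, in the families of IL1 and IL17, through adaptor proteins to NF-kappaB. In healthy brain most of the members are scarce. The exceptions that are well known are the chemokine CX3CL1 on neurones with its receptor on microglia, IL34, which keeps microglia alive, and IL33 in glia.

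Values are normalised read counts, that is, reads divided by a size factor that evens out library depth. From 4379162 to 6902037 reads per library fell on gene models. The table gives only the mean of each season, but each mean is a sum of whole reads, and for 9909 symbols a single pair of whole numbers gives it, so the reads of both libraries are known. The recovered libraries carry no replicate number. They are called winter A and winter B (size factors 1.33 and 0.946) and summer A and summer B (0.922 and 0.877), and in the count files the larger winter factor belongs to replicate 2. A count of 0 allows up to 2.26 to 3.42 normalised reads at these depths, which covers counting error only. The tissue markers were present, with oxytocin (OXT) at a mean of 621 in winter and 592 in summer, the astrocyte gene GFAP at 14423 and 25074, and the microglial gene P2RY12 at 571 and 682. Single solutions grow rare at high means, and sooner in winter than in summer, so the genes that can be tested lean towards low winter means.

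Over the members as a whole, season means were more often higher in summer. Among the 94 members 63 were higher in summer and 31 in winter, with a median log2 ratio of winter to summer of -0.23 (1 read added to each mean), against -0.04 over all symbols. Of the members whose mean reached 10 in either season, 40 of 54 members (74.1%) were higher in summer, against 53.8% of 13811 symbols. Where both means lay under 100, the share was 30 of 37 members (81.1%) against 57.0% of 6032 symbols. By role, 23 of 29 interleukin receptors, 9 of 13 interleukins, 5 of 6 chemokines and 3 of 5 chemokine receptors that passed the minimum were higher in summer. In the counts with a minimum, members with a winter mean under 10, such as IL15 and IL22RA2, entered only through summer, which fixed their direction. The shares depended on 1 summer library. Over the 45 members with known reads the median log2 ratio was -0.28, and without summer B it was -0.0034, with 23 of 45 (51.1%) higher in summer. Over all 7667 tested genes it moved from -0.11 to 0.15, with 42.0% higher in summer without summer B.

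The 45 members that reached this minimum and had a single solution were tested with edgeR's quasi-likelihood test, fitted over 7667 genes. No member passed an adjusted p of 0.05 (Benjamini-Hochberg over all genes, members from 0.983 to 0.998), nor did any other gene, while edgeR's exact test and DESeq2 each passed 1 gene, which was no member. By the study's rule, an unadjusted p under 0.05 with more than a 2-fold difference, 1 of 45 members was higher in summer (background 0.822% of all tested genes) and 0 of 45 were higher in winter (background 0.848%). Without adjustment 1 of 45 members had a p under 0.05 by this test, against 152 of all 7667 tested genes. By edgeR's exact test 1 member had such a p, and by DESeq2 0. Both summer libraries lay above both winter libraries for 9 of 45 members (background 17.2%). The reverse, with winter above, held for 1 of 45 (2.22%, background 13.3%). An exact two-sided permutation test of 2 against 2 libraries cannot go below p = 0.333.

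**Figure D1:**
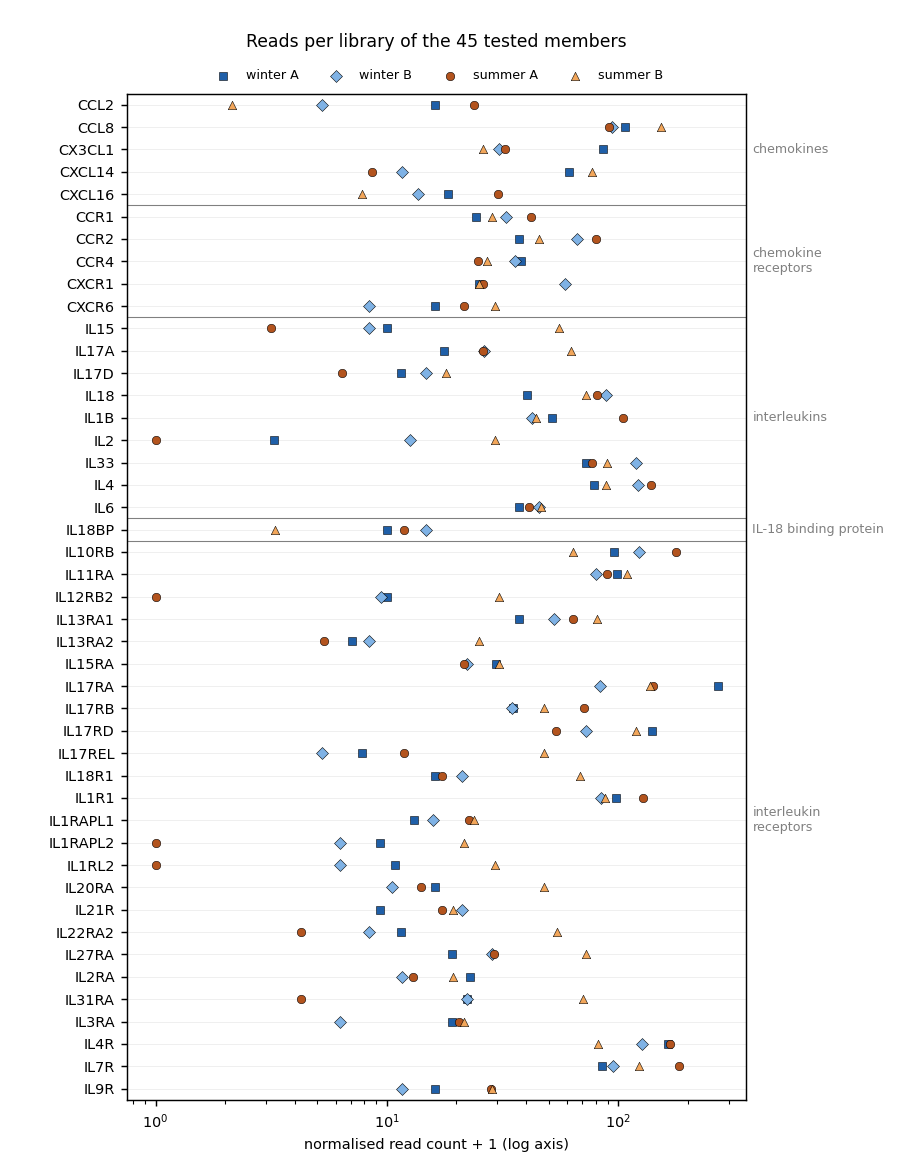
Normalised read count plus 1 (log axis) of each of the 45 tested members in each of the 4 libraries, grouped by role, with 1 point per library and no averaging. For most members the points of both seasons interleave, and summer B (triangles) is the highest library in 24 of 45.

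**Figure D2:**
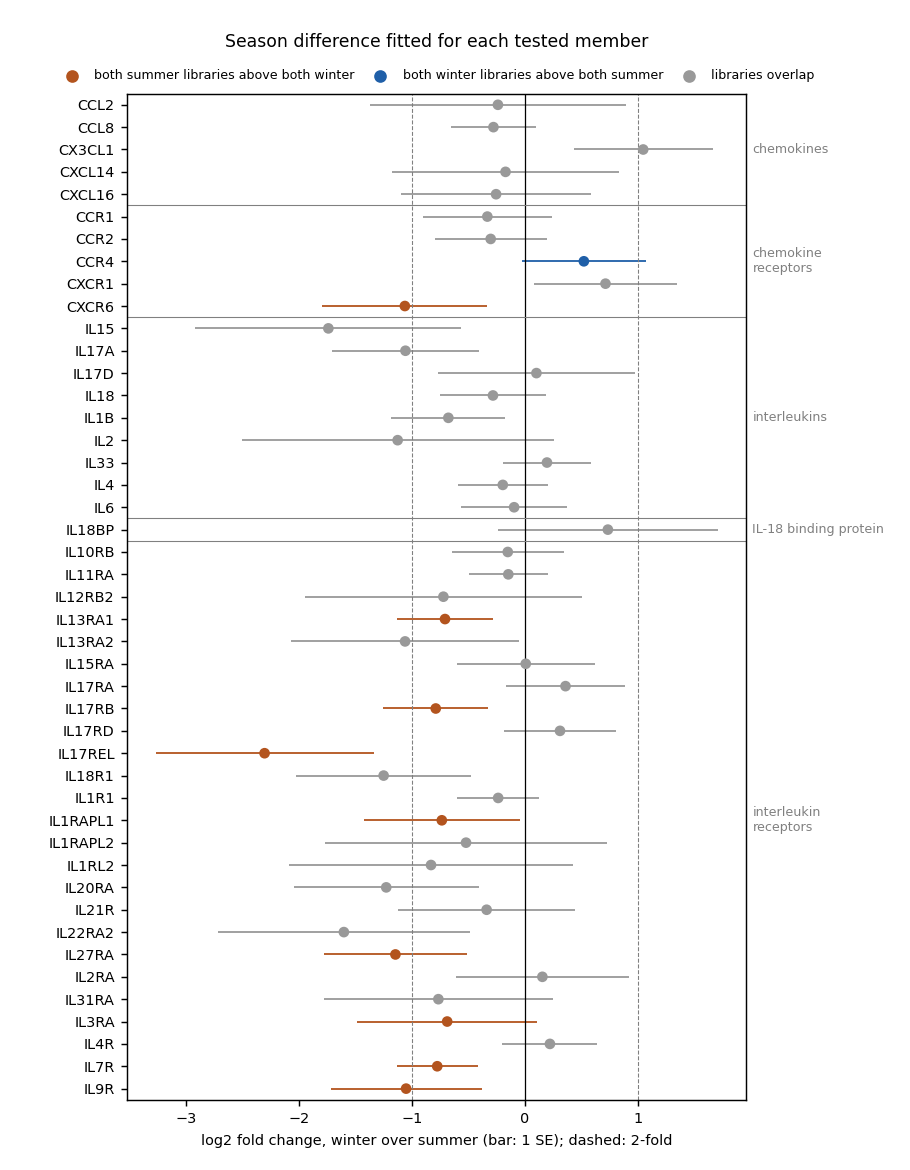
Fitted log2 fold change, winter over summer, of the 45 tested members (points) with 1 standard error on each side (bars), coloured by whether the libraries of the seasons overlap. IL17REL at -2.31 is the farthest from 0, and 34 of 45 points lie below 0.

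The member past the rule was IL17REL, a receptor-like gene related to the IL17 receptors whose function is little known. With a winter mean of 5.51 and a summer mean of 28.8, it reached the minimum of 10 only through summer. The minimum therefore fixed the direction of its difference. It had 6.79 and 4.23 normalised reads in winter A and B, and 10.8 and 46.7 in summer A and B. The summer libraries lay above the winter ones, but summer B alone held 81.2% of the summer signal. The fitted log2 fold change was -2.31 ± 0.97 (SE, n = 2 per season), with an unadjusted edgeR p of 0.0454 and an adjusted p of 0.983. It was -0.93 without summer B and -3.02 without summer A, the reads behind it being 9, 4, 10 and 41 in the same order.

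The other members of the IL17 receptor family had smaller fitted differences, and these were not tested against that of IL17REL. IL17RB, the receptor chain for IL25, had 34 and 33.8 normalised reads in winter and 70.5 and 46.7 in summer, a log2 fold change of -0.79 ± 0.47 (edgeR adjusted p = 0.983). Its 2 winter libraries were nearly equal and lay below both summer ones. IL17RA, the chain shared by most IL17 receptors, had 269 and 82.5 in winter and 140 and 137 in summer. Winter A stood alone there: the fitted log2 fold change was 0.36 ± 0.53 with it and -0.74 without it. IL17RD, a regulator of growth factor signalling, had 139 and 71.9 in winter and 53.1 and 119 in summer, so the libraries overlapped. The ligand IL17A, made by T cells of the Th17 type, had 16.6 and 25.4 in winter and 24.9 and 61.5 in summer, and IL17D, a more distant ligand, had 10.6 and 13.7 against 5.42 and 17.1. Of IL17F, the closest relative of IL17A and its neighbour in the RefSeq annotation, there were 12, 2, 5 and 8 reads, with both means under 10.

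Among receptors of cytokines that use the common gamma chain, IL7R had the smallest unadjusted p. This receptor chain, which T lymphocytes need to survive, had 83.8 and 94.1 normalised reads in winter and 182 and 122 in summer. All 4 libraries held at least 89 reads, and the summer libraries lay above the winter ones. The log2 fold change was -0.78 ± 0.36 (edgeR unadjusted p = 0.064, adjusted p = 0.983), a summer mean 1.71 times the winter mean. It was -0.46 without summer A and -1.04 without summer B (edgeR adjusted p = 0.164 for the latter), so here summer A was the higher library. Its ligand IL7 had only 4, 5, 0 and 16 reads in winter A, winter B, summer A and summer B.

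IL9R, the receptor of a mast cell growth factor, showed the closest summer pair among the members with separate seasons. It had 15.1 and 10.6 normalised reads in winter and 27.1 and 27.4 in summer, for a log2 fold change of -1.05 ± 0.67 (edgeR adjusted p = 0.983). Leaving out any 1 library gave -1.35 to -0.85. The ligand IL9 had 3, 8, 0 and 8 reads. IL21R, which serves follicular T cells and B cells, had 8.30 and 20.1 in winter and 16.3 and 18.2 in summer, within the spread of the winter libraries. IL4R, the receptor of the type 2 cytokine IL4, had 163 and 126 against 167 and 80.9, and IL4 itself 77.7 and 121 against 138 and 87.8. Both pairs overlapped between the seasons, with log2 fold changes of 0.22 ± 0.42 and -0.20 ± 0.40. IL2RA, the high-affinity chain of the IL2 receptor, had 21.9 and 10.6 against 11.9 and 18.2, also overlapping.

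The receptor chain that IL4 and IL13 share, IL13RA1, had 36.2 and 51.8 normalised reads in winter and 62.9 and 79.8 in summer. The seasons did not overlap, and the log2 fold change was -0.71 ± 0.42 (edgeR adjusted p = 0.983), between -0.97 and -0.46 with any 1 library left out. The decoy receptor IL13RA2 had 6.04 and 7.40 in winter and 4.34 and 23.9 in summer, so its higher summer mean came from summer B. IL3RA, the alpha chain of the IL3 receptor, had 18.1 and 5.29 in winter and 19.5 and 20.5 in summer. Winter A lay close under summer A for this gene, and the log2 fold change of -0.69 ± 0.80 fell to -0.14 when winter B was left out.

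IL27RA, a receptor chain of the gp130 type that tunes T helper cells, had 18.1 and 27.5 normalised reads in winter and 28.2 and 71.8 in summer. Winter B and summer A nearly touched, with 26 reads in each. The log2 fold change was -1.15 ± 0.63 (edgeR unadjusted p = 0.11, adjusted p = 0.983) and -0.32 without summer B. IL11RA, from the same receptor type, had 98.1 and 79.3 in winter and 88.9 and 108 in summer, with a log2 fold change of -0.15 ± 0.35. IL6, the best known ligand of that type, had 36.2, 44.4, 40.1 and 45.6 in winter A, winter B, summer A and summer B. Its log2 fold change was -0.10 ± 0.47, among the smallest in size of the interleukins tested. IL6R had no single solution, with season means of 217 in winter and 188 in summer.

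IL1RAPL1 and IL1RAPL2 belong to the IL1 receptor family by sequence but are known in brain as adhesion proteins that organise synapses. IL1RAPL1 had 12.1 and 14.8 normalised reads in winter and 21.7 and 22.8 in summer. The seasons were separate and the libraries of each season close together, at 14 to 20 reads per library, and the log2 fold change was -0.74 ± 0.69 (edgeR adjusted p = 0.983). IL1RAPL2 had 8.30 and 5.29 in winter, 0 in summer A and 20.5 in summer B, which spans the whole range of the winter libraries. Neuronal markers ran the other way in the season means, with 0 of 6 higher in summer and a summed mean of 4688 in winter and 2921 in summer. The part of neuronal content in these values was not tested.

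In the core of the IL1 pathway the libraries of the seasons overlapped. IL1B, the inflammatory cytokine itself, had 50.6 and 41.2 normalised reads in winter and 104 and 43.3 in summer, with summer A alone above the rest. The log2 fold change was -0.68 ± 0.51 (edgeR adjusted p = 0.983), and -1.17 without summer B (edgeR unadjusted p = 0.013, adjusted p = 0.157). Its receptor IL1R1 had 97.3 and 83.5 against 127 and 86.6, with a log2 fold change of -0.24 ± 0.36. The receptor antagonist IL1RN and the decoy IL1R2 were both under the minimum, with 7, 2, 0 and 5 reads and 4, 3, 0 and 6 reads. IL1RL2, the receptor of the IL36 cytokines, had 9.81, 5.29, 0 and 28.5 normalised reads. IL1RAP, the accessory chain, had means of 422 in winter and 483 in summer without a single solution.

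IL33, the alarmin of glia, had 71.7 and 118 normalised reads in winter and 75.9 and 88.9 in summer. Both summer values lay between the winter ones, and the log2 fold change was 0.20 ± 0.39. IL18, an inflammasome product made by microglia, had 39.2 and 87.8 in winter and 80.2 and 71.8 in summer, also overlapping. Its receptor chain IL18R1 had 15.1, 20.1, 16.3 and 67.2, so that 3 libraries lay together and summer B lay apart. The log2 fold change of IL18R1 was -1.25 ± 0.77, and without summer B it was 0.10. The second chain, IL18RAP, the neighbour of IL18R1 in the RefSeq annotation, had 2, 1, 10 and 0 reads and so was highest in the other summer library. The soluble inhibitor IL18BP had 9.05 and 13.7 normalised reads in winter, 10.8 in summer A and 2.28 in summer B, a log2 fold change of 0.74 ± 0.98 that was 0.05 without summer B.

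Some members were high in summer B and low in summer A, a shape that many other genes shared. Summer B was more than 2 times each other library in 13 of 45 tested members (28.9%, background 9.8%). It was the highest library in 24 of 45 (53.3%) against 37.5% of all tested genes. Several of the 13, such as IL15 and IL22RA2 (winter means of 8.23 and 8.98), reached the minimum of 10 only through summer B. Their presence among the tested members is therefore no separate sign of this shape. Where both means lay under 10, the shape was found in 20% of 40 members and 26% of 2242 genes. IL15, a cytokine that maintains NK and memory T cells, had 9.05 and 7.40 normalised reads in winter, 2.17 in summer A and 54.7 in summer B. Its summer mean was 3.46 times its winter mean, and without summer B the log2 ratio turned from -1.67 to 1.54. IL22RA2, the soluble decoy for IL22, had 10.6, 7.40, 3.25 and 53.6, and IL31RA, the receptor of the itch cytokine IL31, had 21.1, 21.2, 3.25 and 69.5. In all 3 genes the winter libraries were close together and lay between the summer libraries. IL20RA, the neighbour of IL22RA2 in the RefSeq annotation and a receptor chain of the IL20 cytokines, had 15.1, 9.52, 13 and 46.7, with summer A inside the winter range.

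The same shape appeared in 4 members with 0 reads in summer A, whose winter means were 6.79 to 8.76. These could reach the minimum of 10 only through summer B, so the minimum itself fixed their shape. IL2, the T cell growth factor, had 3, 11, 0 and 25 reads in winter A, winter B, summer A and summer B, and IL12RB2, a chain of the IL12 receptor, had 12, 8, 0 and 26. IL1RL2 and IL1RAPL2, described above, were the others. A count of 0 in summer A allows up to 3.25 normalised reads, and any ratio of these 4 genes without summer B depends on the 1 read added. Zeros in summer A were found in 8.89% of the tested members and 3.68% of all tested genes. Over all tested genes, 282 had 0 reads in summer A and 8 in summer B.

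**Figure D3:**
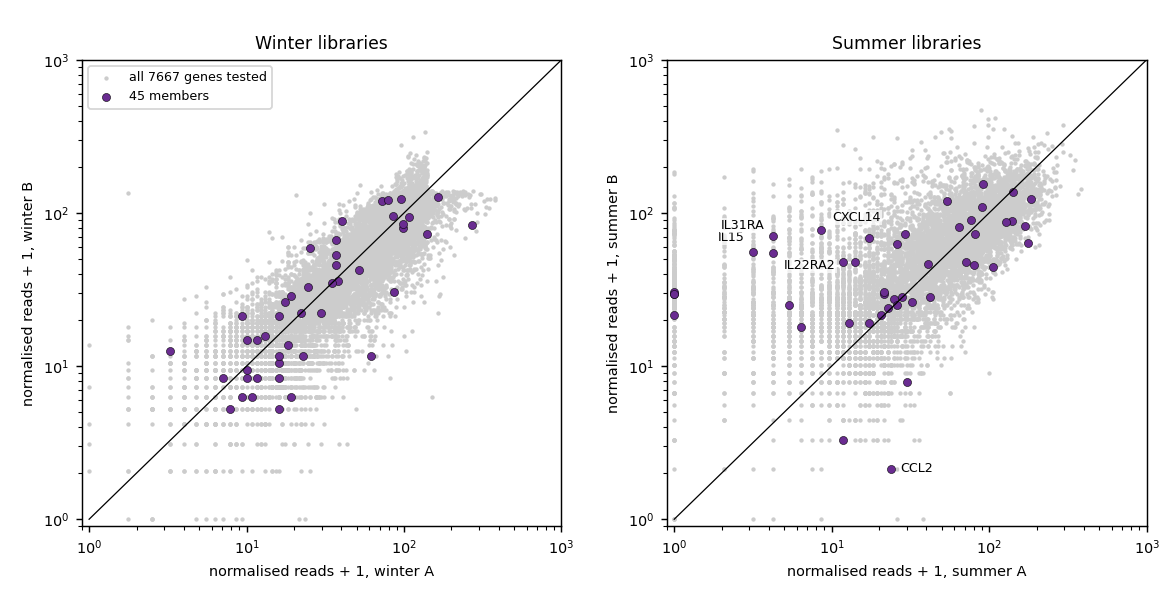
Normalised reads plus 1 (log axes) of 1 library of a season against the other, for the winter libraries (left) and the summer libraries (right), with the 45 tested members in purple over all 7667 tested genes in grey and the line of equal values. The summer libraries scatter more widely than the winter ones, and IL15, IL22RA2, IL31RA and CXCL14 lie far to the side of summer B while CCL2 lies to the side of summer A.

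**Figure D4:**
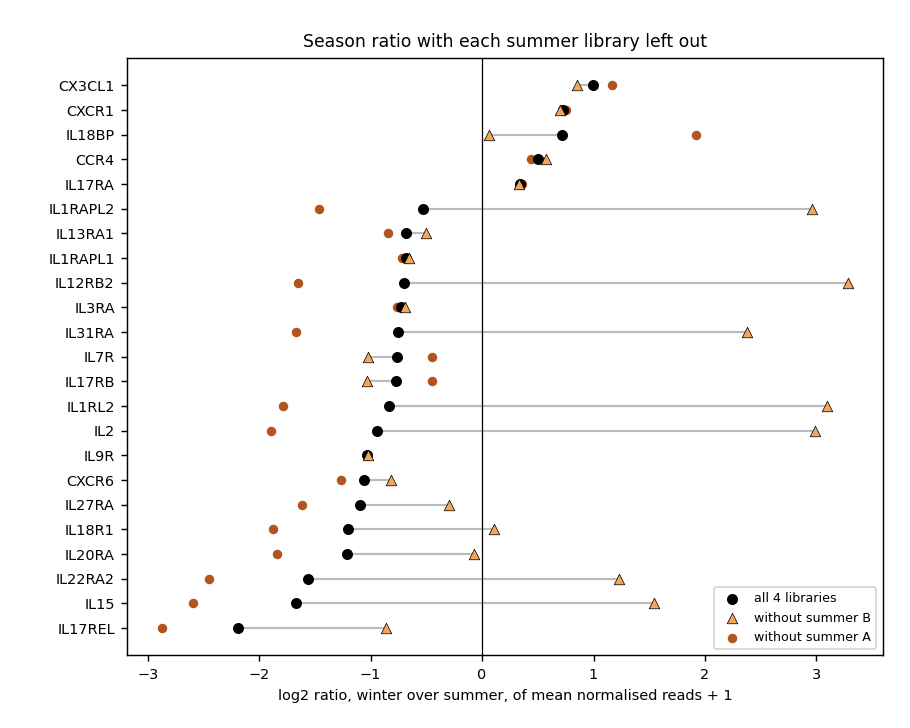
Log2 ratio of winter to summer, from means of normalised reads plus 1, for 23 members with all 4 libraries (black), without summer A (brown circles) and without summer B (triangles). IL15, IL22RA2, IL31RA, IL18R1 and the 4 members with 0 reads in summer A change sign without summer B, while IL7R, IL17RB, IL9R and IL1RAPL1 stay below 0 either way.

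Leaving out a summer library moved the calls more than any other choice. Without summer A, 14 of 50 members passed the rule, all higher in summer (28.0%, background 13.6%), and IL15, IL17REL and IL22RA2 passed an adjusted p of 0.05 by edgeR's quasi-likelihood test (0.0186, 0.0156 and 0.0269). IL15, IL17REL and IL22RA2 had winter means of 8.23, 5.51 and 8.98. Without summer A they reached the minimum of 10 only through summer B, their highest library. The same held for others of the 14, such as CCL26 and IL7, which were not tested with all 4 libraries. Many other genes also passed the adjusted p in this fit. The lone summer library is then assumed to vary like the winter libraries. The fitted variation between libraries was 0.290, against 0.459 with all 4. These calls are therefore no separate sign of a season difference. Without summer B, 4 of 39 members passed higher in summer (10.3%, background 2.97%), namely IL17RB, IL18RAP, IL1B and IL7R, and 2 of 39 passed higher in winter (5.13%, background 11.7%), namely CXCL14 and IL31RA. Without winter A or without winter B, 0 members passed, with no p under 0.05. In the fit without summer B, IL18RAP (winter mean 1.28) reached the minimum of 10 only through summer A, with 10.8 normalised reads. The lone summer library was again assumed to vary like the winter libraries, and the fitted variation was 0.287. The calls without summer B, in both directions, are therefore no separate sign of a season difference either. Summed T cell markers were highest in summer B. Of 13 markers 11 had means, 7 of them higher in summer, and their summed normalised reads were 176 and 254 in winter and 232 and 328 in summer. The markers did not move together. CD3E had 36.2, 34.9, 66.1 and 65 normalised reads, CD2 had 3.77, 3.17, 0 and 29.6, and CD5 had 51 reads in summer A and 5 in summer B, while CD3D and UBASH3A were separate with winter above. Markers of B and plasma cells summed to 80.0, 98.4, 77.0 and 148 over 7 of 9 genes. Their part in the values of the members was not tested.

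CX3CL1 had the largest log2 fold change towards winter of the 45 tested members. This membrane-bound chemokine of neurones, also called fractalkine, had 85.3 and 29.6 normalised reads in winter and 31.4 and 25.1 in summer. Winter A alone stood above the rest, and winter B lay within the summer range. The log2 fold change was 1.05 ± 0.62 (edgeR unadjusted p = 0.129, adjusted p = 0.983) and 0.07 without winter A. SNAP25, a neuronal gene, had 466, 115, 73 and 175 reads and was likewise highest in winter A, as were 25.4% of all tested genes. It was next highest in summer B, where CX3CL1 was lowest. RBFOX3, the other neuronal marker with known reads, had 53.6 and 37.0 normalised reads in winter and 15.2 and 33.1 in summer. The part of neuronal content in CX3CL1 was not tested. The receptor CX3CR1, a microglial gene outside the rule, had means of 951 in winter and 1169 in summer without a single solution.

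The chemokines that draw monocytes gave no steady difference. CCL8 had 106 and 93.1 normalised reads in winter and 90.0 and 153 in summer, a log2 fold change of -0.28 ± 0.38. CCL2 had 15.1, 4.23, 22.8 and 1.14, varying more within each season than between them. Its receptor CCR2 had 36.2 and 65.6 against 79.2 and 44.5, and CCR1, a receptor for CCL3 and CCL5, had 23.4 and 31.7 against 41.2 and 27.4. For both receptors the libraries overlapped, with log2 fold changes of -0.30 ± 0.50 and -0.33 ± 0.57. CCL3, CCL4 and CCL5 were under the minimum, with at most 9 reads in any library. CCL15 had means of 274 in winter and 348 in summer, and none of its possible solutions separated the seasons.

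CXCL14, a chemokine made constitutively in many epithelia and in brain, varied widely within both seasons. It had 60.4 in winter A, 10.6 in winter B, 7.59 in summer A and 76.4 in summer B, so 1 library of each season was high. Its log2 fold change was -0.17 ± 1.00, and without summer B it was 2.25 (edgeR unadjusted p = 0.00568, adjusted p = 0.0961). CXCL16, a membrane-bound chemokine, had 17.4 and 12.7 in winter and 29.3 and 6.84 in summer. Its only receptor, CXCR6, found on resident T and NK cells, had 15.1 and 7.40 in winter and 20.6 and 28.5 in summer. The receptor's seasons were separate at 7 to 25 reads per library, while those of its ligand overlapped. The log2 fold change of CXCR6 was -1.06 ± 0.73 (edgeR adjusted p = 0.983) and stayed between -1.71 and -0.69 with any 1 library left out.

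CCR4 was the only tested member whose seasons were separate with winter above. This receptor of Th2 and regulatory T cells had 37.0 and 34.9 normalised reads in winter and 23.9 and 26.2 in summer. The libraries of each season lay close together, at 22 to 49 reads, and the log2 fold change was 0.52 ± 0.55 (edgeR adjusted p = 0.983), from 0.45 to 0.59 with any 1 library left out. Its ligand CCL22 had 6 and 1 reads in winter and 0 in both summer libraries, and its other ligand, CCL17, was listed without means. CXCR1, the neutrophil receptor for the chemokine IL8, had 24.1 and 58.2 in winter and 24.9 and 23.9 in summer. Winter B alone was high there, and the log2 fold change of 0.71 ± 0.63 became -0.02 without it.

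Other interleukin receptors with known reads gave overlapping libraries. IL10RB, a chain shared by the receptors of IL10 and IL22, had 95.1 and 122 normalised reads in winter and 177 and 62.7 in summer. IL15RA, which presents IL15 to neighbouring cells, had 28.7 and 21.2 against 20.6 and 29.6, the nearest to equal of the 45 members (log2 fold change 0.01 ± 0.61). Over the 25 interleukin receptors tested, 8 had separate seasons with summer above, against 17.2% of all tested genes. A log2 fold change below 0 was found in 20 of the 25, against 58.4% of all tested genes, and the median was -0.72 against -0.11. IL17REL, IL22RA2, IL13RA2, IL1RL2, IL12RB2 and IL1RAPL2 had winter means from 5.51 to 8.98. These receptors reached the minimum of 10 only through summer, so their direction was fixed and they are no separate sign of it. In 16 of the 25, summer B was the highest library, as it was in 37.5% of all tested genes.

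In 9 members past the minimum the reads of each library had no single solution. IL34, the second ligand of the microglial receptor CSF1R, had means of 245 in winter and 275 in summer. CSF1R, outside the rule, had 120 and 92.0 normalised reads in winter and 77.0 and 35.3 in summer, a log2 fold change of 0.92 ± 0.45 (edgeR adjusted p = 0.983), with winter above. IL16, a ligand of CD4 cut from a larger precursor, had means of 821 in winter and 572 in summer, and 2 of its 8 possible solutions put both winter libraries above both summer ones. IL10RA had 374 and 333, IL12B, the chain shared by IL12 and IL23, had 185 and 185, and IL23A had 168 and 197. IL17RC, the partner of IL17RA, had 205 and 240.

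A further 40 members had both means under 10 and were not tested, 32 of them with at least 5 reads in some library. In 4 of the 40 the seasons were separate with winter above (10%, background 14.8% of the 2242 genes with both means under 10). CCL19, a lymph node chemokine, had 4 and 6 reads in winter and 0 in both summer libraries, CCR8 had 12 and 7 against 2 and 0, and CCL22 and IL19 were the others. They were separate with summer above in 2 (background 9.59%), IL12A with 5 and 1 reads against 9 and 8, and IL32 with 7 and 4 against 5 and 5. Summer A held 0 reads of 25 of the 40 (62.5%), against 53.3% of all such genes. Among the rest, IL5, which serves eosinophils, had 6, 10, 3 and 13 reads, the anti-inflammatory IL10 had 3, 9, 3 and 9, IL12RB1 had 8, 9, 0 and 14, and CCL26, an eosinophil chemokine, had 2, 4, 0 and 15. Beside these, CCL20 had 7 reads in winter B and 0 elsewhere, and CXCL11 had 8 in summer B and 1 in all others together. The rest with at least 5 reads in a library were CCL11, CXCL1, CXCL10, CCR10, CXCR5, IL21, IL36A, IL36G, IL37, IL4I1, IL17RE and IL5RA, which overlapped between the seasons. The 8 with fewer were CCL27, CXCL9, CCR6, CCR9, CXCR3, IL11, IL27 and IL19.

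The 28 symbols listed without means included the chemokine CXCL12 and its receptor CXCR4, the receptors CCR3, CCR7, CXCR2 and XCR1, the chemokines CCL16, CCL17, CCL21C, CCL24 and CCL25, and the IL33 receptor IL1RL1. The interleukins among them were IL13, IL17B, IL17C, IL1A, IL1F10, IL20, IL22, IL24, IL25, IL26, IL31, IL36B and IL36RN, and the receptor chains were IL20RB, IL22RA1 and IL2RB. Missing means were not taken as 0. The scavenging receptor of CXCL12, ACKR3, which is outside the rule, had 122 and 128 normalised reads in winter and 198 and 107 in summer.

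The wider pathway was counted over lists of signalling genes chosen for this purpose. Of 45 tested genes in the lists, 0 passed the rule in either direction (0.822% and 0.848% of all tested genes). An unadjusted p under 0.05 by edgeR's quasi-likelihood test was found in 1, against 152 of all 7667 tested genes. That gene was NFKBIA, the inhibitor and target of NF-kappaB, with 130 and 85.7 normalised reads in winter and 203 and 191 in summer (log2 fold change -0.86 ± 0.35, edgeR adjusted p = 0.983). Seasons were separate with summer above in 7 of the 45 and with winter above in 9, against 17.2% and 13.3% of all tested genes, and the median log2 fold change was -0.06 against -0.11. Of 13 genes of IL1 and Toll-like receptor signalling 10 had a log2 fold change below 0, and of 10 genes of chemokine receptor signalling 3 had, against 58.4% of all tested genes. None of these genes but NFKBIA had an unadjusted p under 0.05. The scavenger of inflammatory CC chemokines, ACKR2, had 10.6 and 13.7 normalised reads in winter and 44.5 and 22.8 in summer, with summer above (log2 fold change -1.48 ± 0.70, edgeR adjusted p = 0.983). All 7 tested genes of the list of other chemokine system genes had a log2 fold change below 0, of which 1, ACKR2, had separate seasons.

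In the RefSeq annotation of another dromedary assembly, 82 of the 94 members were matched by symbol or synonym. Of 49 matched members past the minimum, 19 overlapped another annotated gene. These included CXCR6 (with FYCO1), IL17RB (ACTR8), IL27RA (PALM3), IL3RA (SLC25A6), IL4 (KIF3A), IL18 (TEX12), IL18BP (NUMA1) and IL16 (STARD5), and below the minimum CCR8 overlapped the microglial receptor gene CX3CR1. They also included IL23A (STAT2), IL34 (MTSS2), IL1RAPL1 and IL17RA (each with a coding gene that has no name) and IL9R (an RNA gene that has no name). The libraries were stranded, but the strand setting of the counting is not given in the sources used here, so reads of these members and their partners may be mixed and their values are uncertain. The same holds for chemokines of the CC cluster, and for CXCR1 with its relative CXCR2, if reads were shared between near-identical copies.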

How the data were processed

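Stranded total RNA of the supraoptic nucleus, depleted of ribosomal RNA, was sequenced in 2 winter and 2 summer libraries. The authors used TopHat to place the reads on a dromedary assembly of their own, and deposited raw HTSeq counts for 64989 gene models, whose identifiers are not paired with gene symbols in the files used here. Tool versions are not given in the sources used here. These counts served only for depth and size factors, and the 5 tallies that end each count file were left out. The deposited table gives per gene symbol a signal, which the authors made by dividing counts by DESeq size factors and averaging over the season, to 6 significant digits. It also holds the authors' own edgeR fold change (a ratio) and p-value, and neither was used.

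Whole reads were recovered from the step by which 1 read raises a season mean in a given library, each mean being solved for a pair of whole numbers. In winter 16053 of 16053 means and in summer 16052 of 16053 came out whole to the printed digits. Of low means, 100% came out whole, against 0.469% (winter) and 0.475% (summer) of the same values moved slightly. Of 2000 simulated means per season, 1235 and 1813 had a single solution, and every one was right. For genes whose mean reached 10 in either season, seasons were compared by the quasi-likelihood test of edgeR 4.0.16 (R 4.3.3; estimateDisp, then glmQLFit without its legacy setting, then glmQLFTest; season as the only term), scaled by the recovered size factors, with Benjamini-Hochberg adjustment over 7667 genes. The study's rule was an unadjusted p under 0.05 and more than 2-fold. The script was tested on simulated data. Alternatives were edgeR's exact test, DESeq2 1.42.0, TMM and RLE scaling, other filters, a fold of 1.5, pseudocounts of 0.5 and 5 for the ratio of means, and leaving out each library. Restricting the fit to genes with both means under 100, and a minimum over all 4 libraries, were chosen after seeing the data.

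The members, the pathway lists and the marker lists were chosen with earlier results of these data known. Values in every library were given for members past the rule, members with separate seasons, the 5 largest fitted changes in each direction, listed ligand and receptor pairs, and IL1RAPL1 and IL1RAPL2, and most others were added for completeness. Pathway genes outside the rule were named where they had a p under 0.05 or are the partner of a member. ACKR2, SNAP25 and RBFOX3 were named after their values were seen. Values of 2 symbols that match the rule are not reported here. RefSeq gene names came from the assembly mCamDro1.pat, which is not the authors' build, so no coordinates are given. Figures were drawn with matplotlib 3.10.9.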

Additional observations from a re-analysis of the deposited data

How the results depend on the processing

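The main test put 1 of 45 members past the rule (2.22%, background 1.67% of all tested genes). DESeq2 called 0 (background 0.783%), and the other tests, scalings, filters and the fold of 1.5 each called 1. Leaving out 1 library gave 0 to 14 members past the rule, 14 without summer A and 6 without summer B, and 0 to 3 past an adjusted p of 0.05 by edgeR. Without summer A or without summer B, many genes outside the members also passed the adjusted p, and these fits rest on a lone summer library. Pathway genes past the rule went from 0 to 1 with no filter (SOCS3, with 9 and 5 reads in winter and 0 in both summer libraries). The number was also 1 at a minimum mean of 5, and 1 at a fold of 1.5 (NFKBIA). Members with separate seasons rose from 10 of 45 to 16 of 85 with no filter, and were 11 under TMM scaling and 9 to 10 in the alternatives chosen after seeing the data. Over all tested genes the main share was 17.2% with summer above and 13.3% with winter above, and it was not taken for the alternatives. The median log2 ratio of the members was -0.23, between -0.26 and -0.17 with other pseudocounts or the minimum, and between -0.51 and 0.53 with 1 library left out, the last without summer B over the 85 members with known reads.

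Of 18 members with full values, 3 fitted log2 fold changes turned in sign. With 1 library left out, that of CXCR1 ranged from -0.018 (without winter B) to 1.25, that of IL17RA from -0.74 (without winter A) to 0.96, and that of IL18R1 from -1.94 to 0.10 (without summer B). Of 210 alternative values for these members, 204 kept their direction and their side of an adjusted p of 0.05, and 11 crossed an unadjusted p of 0.05, of which 4 were losses of IL17REL (with DESeq2, and without winter A, winter B or summer B). IL15 and IL22RA2 fell under the minimum without summer B and have no fitted value there. The causes were not tested. TMM or RLE scaling moved the median of all tested genes by at most 0.04 on the log2 scale.

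No paired analysis was possible because the seasons share only replicate number 2, and the recovered libraries carry no replicate number. The precision of every difference is limited by 2 libraries per season, and many members had under 30 reads in a library. Highly expressed members without a single solution could not be tested.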
